A study of Homo sapiens with 12 samples.

Results

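The comparison described here sets the 3 libraries of CUTLL1 cells labelled GSI at 12 h against the 3 labelled DMSO at 12 h, which are 6 of the 12 libraries of the series, chosen by their labels alone. CUTLL1 is a line of human T-cell acute lymphoblastic leukaemia whose growth is driven by an activated NOTCH1. All 12 libraries were made from poly-A RNA of this 1 line. In the groups compared, cells had been harvested 12 h after addition of either 1 µM Compound E (GSI, an inhibitor of gamma-secretase) or its solvent DMSO, and the same pair of groups was made at 48 h. The labels do not say whether the replicates were separate cultures, so that p-values reflect only how these libraries vary among themselves.

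Gamma-secretase cuts the membrane-bound Notch receptor and frees the part that enters the nucleus to activate transcription. In T-cell leukaemia this signal is known to sustain growth, and a growing cell keeps up a large supply of the machinery that modifies tRNA, splices and exports mRNA and imports proteins into mitochondria. These data do not measure growth, and its part in the changes below was not tested. The genes of hypoxia, glycolysis, ribosome biogenesis and direct Notch targets are left aside, and the text turns to other families: RNA-handling enzymes, nuclear transport, mitochondria, chromatin and transcription, and then adhesion, signalling and metabolism.

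Recovered depth was 75781643 to 101491147 reads per library under the GSI label and 109616415 to 122490751 under the DMSO label, so depth moved with the label, and its part in the results was not tested. Markers of T lymphoblasts were present, with summed normalised read counts of 665873 to 683716 in GSI-labelled and 659355 to 728079 in DMSO-labelled libraries, and of 22 kept markers 1 was higher and 3 were lower. The B cell markers CD22, MS4A1 and PAX5, the myeloid marker CD33, the globins HBA2 and HBB and the epithelial marker EPCAM were at 0 in all 6 libraries. Other B cell markers had reads, and the 8 listed summed to 873 to 1103 in GSI-labelled and 673 to 2533 in DMSO-labelled libraries. Of these 8, 2 were kept, and 0 were higher or lower. The 6 epithelial markers summed to 41.8 to 69.6 in GSI-labelled and 49.0 to 74.3 in DMSO-labelled libraries. The 1 erythroid marker kept, ALAS2, which starts haem synthesis in red cell precursors, was low and had 37.9, 12.7 and 22.8 in libraries labelled GSI, against 4.42, 5.99 and 9.72 in libraries labelled DMSO, a rise of 1.65 ± 0.48 (log2, SE; limma adjusted p = 0.029). It was not called with no filter or without GSI-labelled library 1, GSI-labelled library 3, DMSO-labelled library 1 or DMSO-labelled library 2 (adjusted p = 0.062, 0.13, 0.074, 0.089 and 0.087). Its 48 h comparison gave a log2 fold change of 2.13 (adjusted p = 0.023). Natural killer markers summed to 2730 to 3325 in GSI-labelled and 2806 to 5811 in DMSO-labelled libraries, and myeloid markers to 227 to 462 in GSI-labelled and 411 to 549 in DMSO-labelled libraries. One feature of the labels bears on every direction given here. NRARP, a direct Notch target that a gamma-secretase inhibitor is known to lower, had normalised read counts of 16831, 25383 and 23575 in libraries labelled GSI 12 h, against 36766, 49346 and 40943 in those labelled DMSO 12 h, and 1995, 1776 and 1333 in those labelled GSI 48 h, against 3186, 3564 and 2340 in those labelled DMSO 48 h. It was thus lower under the DMSO 48 h label than under the GSI 12 h label. The groups are therefore named by their labels throughout, and each direction rests on those labels.

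Of 19281 genes kept, 1943 (10.1%) were higher and 2201 (11.4%) lower in GSI-labelled than in DMSO-labelled libraries at an adjusted p under 0.05 in a limma fit, and for 7005 genes (36.3%) the groups did not overlap. Changes of at least 2-fold were more often rises, 743 against 351, although the falls outnumbered the rises in all. Among the 8571 protein-coding genes with a mean of at least 1000, 8.48% were higher and 18.4% lower, and the counts of the families below are to be read against these shares too. The split depended on scaling: with upper-quartile scaling, which moved the median of all genes by 0.09 on the log2 scale, 2536 genes were higher and 1585 lower. The falling count was 844 without GSI-labelled library 1, 1174 without GSI-labelled library 3 and 820 without DMSO-labelled library 2, and the rising count was 755, 1167 and 941 in the same order. Without GSI-labelled library 2, 2626 genes were higher and 3036 lower. Family counts of such fits are to be read against the shares of all genes in the same fit. Without GSI-labelled library 1, 2 and 3 in turn, 4.38%, 15.7% and 6.09% were lower and 3.92%, 13.6% and 6.05% higher. Without DMSO-labelled library 1, 2 and 3 in turn, 8.53%, 4.25% and 8.83% were lower and 6.99%, 4.88% and 8.44% higher. With upper-quartile scaling 8.22% were lower and 13.15% higher.

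The families were taken from 117 gene lists, and the 26 described first are those in which the share called in 1 direction was at least 2 times that of all genes. Their counts are therefore descriptions that follow from this choice. For each, the median log2 fold change of its kept members stands beside the median over all genes, 0.00, and the median over the abundant protein-coding genes, -0.08. In 18 of the 26 lists falls predominated and in 8 rises did, and 25 of them are described.

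**Figure D1:**
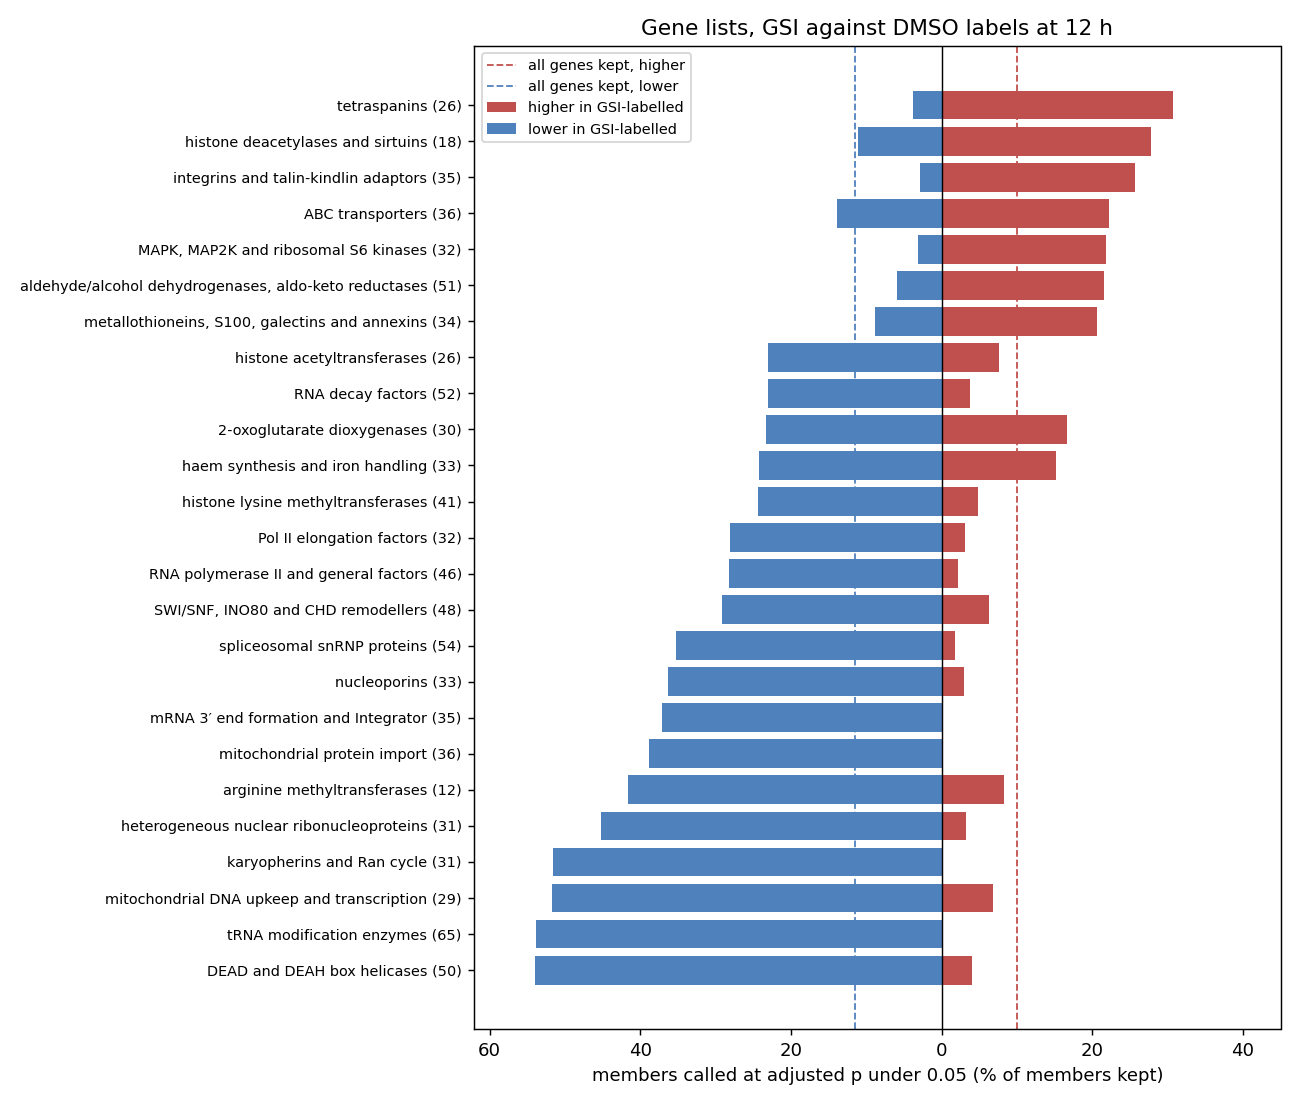
Share of the members kept (number in brackets) called higher (red, to the right) or lower (blue, to the left) at adjusted p under 0.05 in GSI-labelled against DMSO-labelled libraries at 12 h, for 25 of the 26 gene lists chosen by these shares; dashed lines give the shares over all genes kept, 10.1% and 11.4%. The DEAD and DEAH box helicases and the tRNA modification enzymes reach farthest to the left, and the tetraspanins farthest to the right.

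Part of the enzymes that modify tRNA fell in libraries labelled GSI. Of 65 kept members 35 fell and 0 rose, the median log2 fold change being -0.33, and in 41 the groups did not overlap (36.3% of all genes). In bulk RNA fewer cells of a kind and less RNA per cell cannot be told apart, here or in the falls below. TRMT61A (ENSG00000166166), the catalytic subunit that methylates adenosine 58 of tRNA, had normalised read counts of 2224, 3416 and 2015 in the GSI-labelled libraries, against 5896, 6979 and 5881 in the DMSO-labelled libraries. Its level fell by 1.33 ± 0.19 on the log2 scale (SE, adjusted p = 0.0022). PUS1, which converts uridine to pseudouridine in cytosolic and mitochondrial tRNA, had 2360, 3379 and 1941 in libraries labelled GSI, against 5378, 6553 and 5276 in libraries labelled DMSO, a fall of 1.20 ± 0.18 (log2, SE; adjusted p = 0.0025). TRMT1, which dimethylates a guanosine, fell by 1.10 ± 0.16 and DUS3L, a dihydrouridine synthase, by 0.77 ± 0.11 on the same scale. For these 4 genes every GSI-labelled library lay below every DMSO-labelled library, and GSI-labelled library 2 was the highest of its group. Members not called included ELP2, a subunit of the Elongator complex, with 11570, 11350 and 13323 in the GSI-labelled libraries, against 11087, 13753 and 12258 in the DMSO-labelled libraries, where the groups overlapped. The activating partner of several tRNA methyltransferases, TRMT112, had a log2 fold change of -0.27 ± 0.11 (adjusted p = 0.086). The count of members lower was 18 without DMSO-labelled library 2 and 21 without GSI-labelled library 1, beside the smaller counts of all genes lower in those fits.

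The comparison at 48 h uses other libraries. There 21 of the 65 members were lower and 0 higher between the treatment labels, with a median of -0.23, where 5.35% of all genes were lower. Across the libraries at 12 h, the median level of the family relative to each gene's mean was -0.23, -0.09 and -0.27 in the GSI-labelled libraries, against 0.12, 0.28 and 0.17 in the DMSO-labelled libraries (log2). Relative to the same means it was -0.40, -0.21 and -0.32 in libraries labelled GSI 48 h, against -0.09, -0.03 and -0.04 in those labelled DMSO 48 h.

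**Figure D2:**
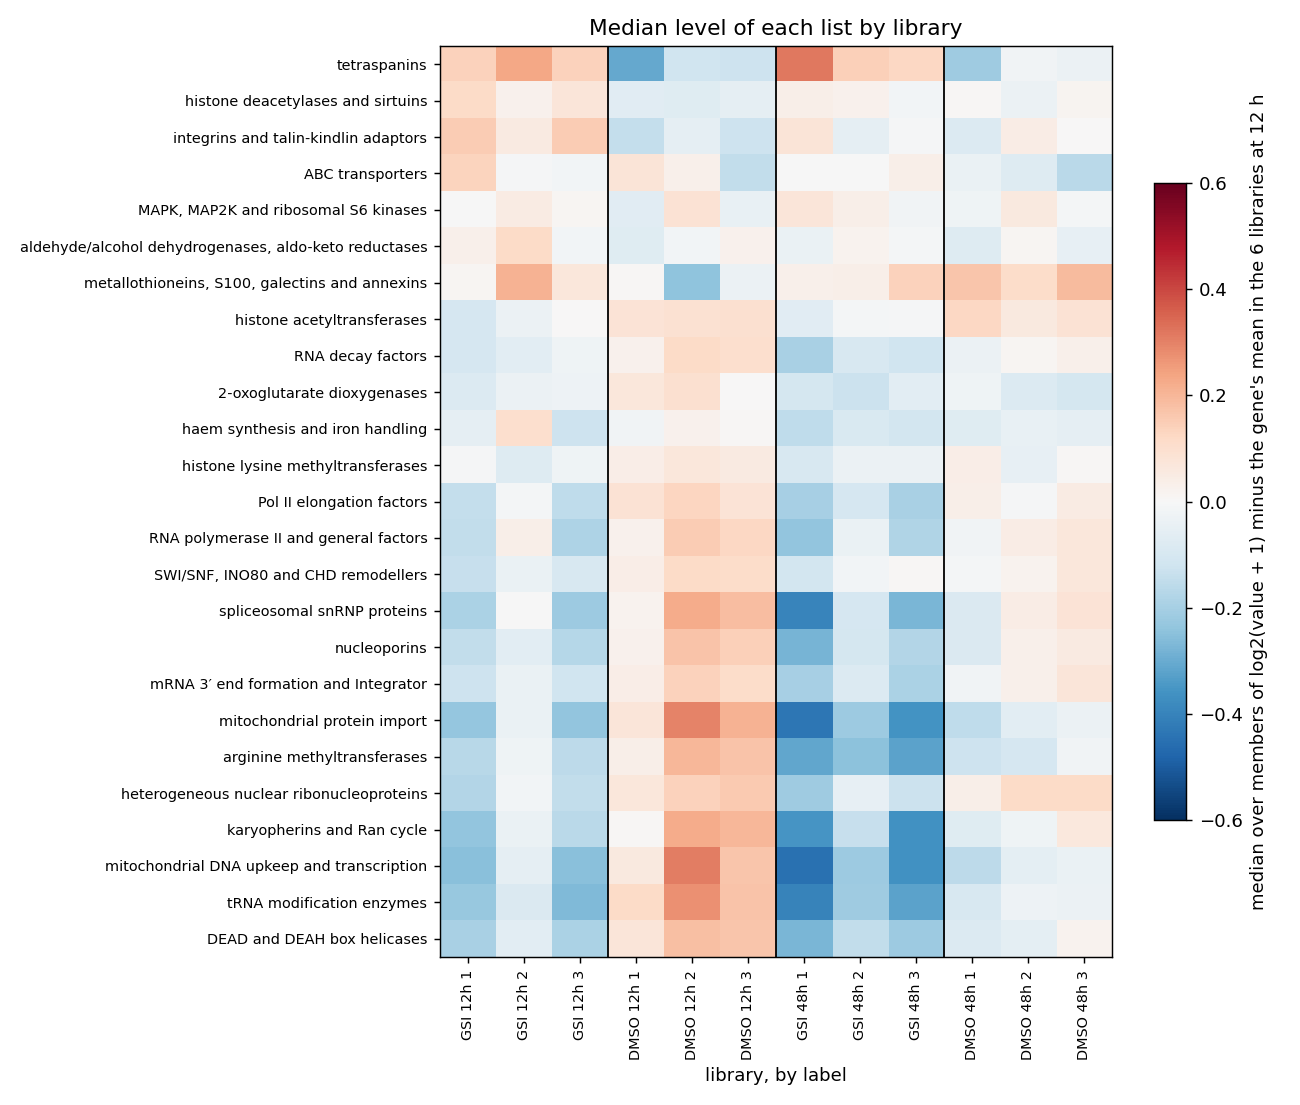
Median level of each of 25 lists in each of the 12 libraries: each cell is the median over the list's members of log2(value + 1) minus that gene's mean in the 6 libraries at 12 h, and black lines part the 4 groups. For the tRNA modification enzymes the cells run from -0.27 to -0.09 under the GSI 12 h label and from 0.12 to 0.28 under the DMSO 12 h label.

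The RNA helicases with a DEAD or DEAH box unwind or remodel RNA in ribosome assembly, splicing, export and translation. Of 50 kept members 27 fell and 2 rose, with a median of -0.29. DDX21 (ENSG00000165732), a nucleolar helicase active in ribosomal RNA transcription and processing, had 23646, 31682 and 23262 in libraries labelled GSI, against 47717, 59526 and 50150 in libraries labelled DMSO, so that no library of one label reached the other. Its fall was 1.01 ± 0.14 on the log2 scale (SE, adjusted p = 0.0019). DDX51 fell by 0.77 ± 0.10, DHX37 by 0.89 ± 0.12 and DDX31 by 0.84 ± 0.13, and all 4 are known from the nucleolus and ribosome assembly, a function set aside above, so this family overlaps it in part. DDX17, a helicase and transcriptional coregulator, had 125026, 114368 and 126437 in the GSI-labelled libraries, against 104318, 104222 and 116933 in the DMSO-labelled libraries, with overlapping groups and a log2 fold change of 0.17 ± 0.08 (adjusted p = 0.16). The number of helicases lower was 15 without GSI-labelled library 1 and 17 without DMSO-labelled library 2. Protein arginine methyltransferases and their partners gave 5 falls and 1 rise among 12 kept members (median -0.26). PRMT5 (ENSG00000100462), which methylates spliceosomal Sm proteins and histones, had 5771, 7981 and 5128 in libraries labelled GSI, against 9841, 12315 and 10919 in libraries labelled DMSO, and fell by 0.83 ± 0.17 (log2, SE; adjusted p = 0.0067). Its obligate partner WDR77 fell by 0.79 ± 0.17, PRMT3, which methylates a ribosomal protein, by 0.66 ± 0.12, and PRMT7, which makes monomethylarginine, by 0.53 ± 0.09. PRMT1, the main asymmetric methyltransferase, had 26955, 32745 and 20211 in the GSI-labelled libraries, against 29523, 39407 and 34841 in the DMSO-labelled libraries, where the groups overlapped (adjusted p = 0.095).

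**Figure D3:**
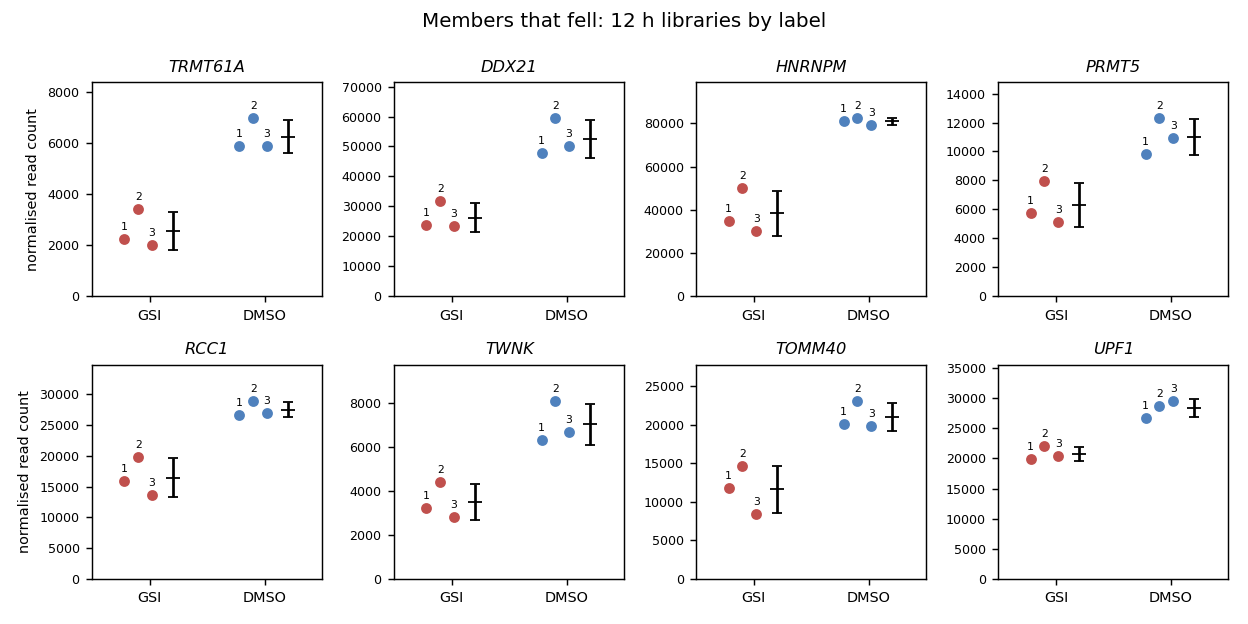
Normalised read counts of 8 members that fell, in each GSI-labelled library (red, left) and each DMSO-labelled library (blue, right) at 12 h; small digits are replicate numbers, and black marks give mean ± SD (n = 3). In every panel the 3 GSI-labelled libraries lie below the 3 DMSO-labelled libraries, for TRMT61A at 2015 to 3416 against 5881 to 6979.

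Proteins that bind and splice pre-mRNA were lower in part. Of 31 heterogeneous nuclear ribonucleoproteins kept, 14 fell and 1 rose (median -0.28), and of 54 proteins of the spliceosomal snRNPs 19 fell and 1 rose (median -0.27). HNRNPM (ENSG00000099783), a regulator of alternative splicing, had 34835, 50193 and 30274 in libraries labelled GSI, against 81113, 82483 and 79069 in libraries labelled DMSO, and fell by 1.11 ± 0.17 on the log2 scale (SE, adjusted p = 0.0025). This was the largest fall of the hnRNP list. PTBP1, the polypyrimidine tract-binding splicing repressor, fell by 0.54 ± 0.10 and SYNCRIP, also called hnRNP Q, by 0.59 ± 0.11. The member that rose was PCBP4, a poly(C)-binding protein, with 505, 526 and 430 in the GSI-labelled libraries, against 167, 279 and 205 in the DMSO-labelled libraries, with a rise of 1.19 ± 0.22 (log2, SE; adjusted p = 0.0049). HNRNPH1, with a log2 fold change of -0.07 ± 0.09 and overlapping groups, and HNRNPA2B1, at -0.39 ± 0.14 (adjusted p = 0.057), were the most abundant members not called. Among snRNP proteins, U2AF2, which recognises the polypyrimidine tract at the 3′ splice site, had 36072, 40347 and 33634 in libraries labelled GSI, against 53731, 52023 and 53886 in libraries labelled DMSO, and fell by 0.54 ± 0.09. PRPF19, the ubiquitin ligase of the activated spliceosome, fell by 0.66 ± 0.12, and the U2 proteins SF3A1 and SF3B4 by 0.38 ± 0.08 and 0.48 ± 0.10. The U2 protein SF3B1, which holds the branch site, was not called, with 79995, 81069 and 93590 in the GSI-labelled libraries, against 77425, 86540 and 85928 in the DMSO-labelled libraries. The count of hnRNPs lower was 3 without GSI-labelled library 1, 4 without DMSO-labelled library 2, 6 without GSI-labelled library 3, 7 without DMSO-labelled library 3 and 9 with upper-quartile scaling, and that of snRNP proteins 7 without GSI-labelled library 1 and without DMSO-labelled library 2, 9 without GSI-labelled library 3, 12 with upper-quartile scaling and without DMSO-labelled library 3 and 32 without GSI-labelled library 2.

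Factors of later steps of mRNA life fell in part. Of 35 factors of mRNA 3′ end formation and the Integrator complex 13 fell and 0 rose (median -0.18). CSTF2, the RNA-binding subunit of the cleavage stimulation factor, had 4705, 5600 and 5259 in libraries labelled GSI, against 6920, 7725 and 6813 in libraries labelled DMSO, a fall of 0.46 ± 0.10 (log2, SE; adjusted p = 0.0067), while the Integrator scaffold INTS1 had 25932, 23567 and 24354 in the GSI-labelled libraries, against 24546, 22753 and 24290 in the DMSO-labelled libraries, with overlapping groups. Of 52 factors of RNA decay 12 fell (23.1%, near the 18.4% of abundant protein-coding genes) and 2 rose (median -0.14). UPF1, the helicase at the centre of nonsense-mediated decay, had 19882, 22015 and 20374 in libraries labelled GSI, against 26665, 28667 and 29598 in libraries labelled DMSO, and fell by 0.45 ± 0.08. DIS3L, a cytoplasmic exosome nuclease, fell by 0.52 ± 0.09, and EXOSC5, a core exosome subunit, by 0.70 ± 0.15. BTG2, an antiproliferative protein that recruits the CCR4-NOT deadenylase, rose, with 5134, 3850 and 4373 in the GSI-labelled libraries, against 2678, 2544 and 2265 in the DMSO-labelled libraries, with a log2 fold change of 0.83 ± 0.16 (adjusted p = 0.0049). CNOT1, the scaffold of that complex, was not called (log2 fold change -0.07 ± 0.08). The count of 3′ end factors lower was 4 without GSI-labelled library 1 and without DMSO-labelled library 2, 6 with upper-quartile scaling, without GSI-labelled library 3 and without DMSO-labelled library 3 and 7 without DMSO-labelled library 1. That of decay factors was 4 without GSI-labelled library 1 and without DMSO-labelled library 2, 6 without GSI-labelled library 3 and 7 without DMSO-labelled library 3.

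Part of the carriers that take cargo through the nuclear pore fell, as did part of the pore itself. Of 31 karyopherins and proteins of the Ran cycle 16 fell and 0 rose, with a median of -0.34, and of 33 nucleoporins 12 fell and 1 rose, with a median of -0.24. RCC1 (ENSG00000180198), the chromatin-bound exchange factor that loads Ran with GTP, had 15882, 19800 and 13616 in libraries labelled GSI, against 26612, 28933 and 26887 in libraries labelled DMSO, and fell by 0.76 ± 0.13 on the log2 scale (SE, adjusted p = 0.0033). The import receptor TNPO2 fell by 0.63 ± 0.10, its relative TNPO1 by 0.53 ± 0.09, and XPO5, the exporter of microRNA precursors, by 0.60 ± 0.13. RAN itself had 77684, 92056 and 68309 in the GSI-labelled libraries, against 90616, 105817 and 115268 in the DMSO-labelled libraries, with overlapping groups (adjusted p = 0.067), and the general exporter XPO1 had a log2 fold change of -0.17 ± 0.09. Of the pore proteins, SEH1L fell by 0.59 ± 0.12, NUP188 by 0.49 ± 0.10 and NUP214 by 0.44 ± 0.08. TPR, which forms the basket of the pore, had 42506, 40245 and 44148 in libraries labelled GSI, against 38311, 42462 and 44368 in libraries labelled DMSO, with overlapping groups. The number of karyopherins and Ran factors lower was 5 without GSI-labelled library 1 and without DMSO-labelled library 2 and 8 without GSI-labelled library 3 and without DMSO-labelled library 3. At 48 h 4 of the 31 and 7 of the 33 were lower.

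Nuclear genes of some mitochondrial functions fell in part, while other mitochondrial lists stood near the 11.4% of all genes lower. Of 44 mitochondrial carriers of the SLC25 family 5 fell and 5 rose. Of 30 genes of the tricarboxylic acid cycle and pyruvate dehydrogenase 3 fell and 4 rose. Of 28 genes of mitochondrial dynamics and cristae 4 fell (14.3%) and 3 rose. Of 29 genes for upkeep and transcription of mitochondrial DNA 15 fell and 2 rose (median -0.37), and of 36 for protein import 14 fell and 0 rose (median -0.32). TWNK (ENSG00000107815), the replicative helicase of mitochondrial DNA, had 3236, 4398 and 2823 in the GSI-labelled libraries, against 6308, 8095 and 6660 in the DMSO-labelled libraries, and fell by 1.03 ± 0.16 on the log2 scale (SE, adjusted p = 0.0029). FASTKD2 and PNPT1, which act on mitochondrial RNA, fell by 0.57 ± 0.10 and 0.69 ± 0.12. MTERF2, of the mitochondrial termination factor family, rose instead, with 1214, 1097 and 1151 in libraries labelled GSI, against 746, 664 and 784 in libraries labelled DMSO, with a log2 fold change of 0.66 ± 0.11 (adjusted p = 0.0033). TOMM40 (ENSG00000130204), the channel of the outer membrane, had 11762, 14605 and 8434 in the GSI-labelled libraries, against 20139, 23124 and 19890 in the DMSO-labelled libraries, and fell by 0.89 ± 0.16 (adjusted p = 0.004). The receptors TOMM22 and TOMM70 fell by 0.64 ± 0.13 and 0.49 ± 0.10, and the inner-membrane receptor TIMM50 by 0.57 ± 0.12, whereas the receptor TOMM20 had 17818, 19437 and 23435 in libraries labelled GSI, against 23546, 22514 and 20418 in libraries labelled DMSO, with overlapping groups.

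The 13 mRNAs that the mitochondrial genome itself encodes had a median log2 fold change of 0.02, and 1 of them fell and 0 rose. That 1 was MT-ND1, a subunit of complex I, with 77524, 117809 and 67736 in the GSI-labelled libraries, against 131708, 141035 and 130177 in the DMSO-labelled libraries, with a fall of 0.66 ± 0.17 (log2, SE; adjusted p = 0.018). It was not called without GSI-labelled library 1, GSI-labelled library 3 or DMSO-labelled library 2 (adjusted p = 0.078, 0.071 and 0.066). MT-CO1, a subunit of cytochrome oxidase, had 546763, 615517 and 693888 in libraries labelled GSI, against 547538, 600121 and 695738 in libraries labelled DMSO. The difference between the nuclear and the mitochondrial genes was not tested. The count of upkeep genes lower was 8 without GSI-labelled library 1, without GSI-labelled library 3 and without DMSO-labelled library 2, and that of import genes 4 without DMSO-labelled library 2, 5 without GSI-labelled library 1 and 6 without GSI-labelled library 3.

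General transcription factors and chromatin enzymes also fell in part. Among 46 subunits of RNA polymerase II and the general factors 13 fell (28.3%, beside 18.4% of abundant protein-coding genes) and 1 rose (median -0.22). Mediator subunits gave 5 falls and 0 rises among 33 (median -0.04). GTF2A1, a subunit of TFIIA, had 12665, 16833 and 14191 in the GSI-labelled libraries, against 22676, 20228 and 22741 in the DMSO-labelled libraries, and fell by 0.60 ± 0.12 on the log2 scale (SE, adjusted p = 0.0065). Of 32 elongation factors 9 fell (28.1%, beside the same 18.4%) and 1 rose (median -0.19). These falls were led by MEPCE, which caps the 7SK RNA that holds P-TEFb inactive. MEPCE had 7806, 11439 and 9410 in libraries labelled GSI, against 17828, 21058 and 15608 in libraries labelled DMSO, with a fall of 0.93 ± 0.16. CDK12, a kinase of the polymerase tail, fell by 0.42 ± 0.08. POLR2E, a subunit shared by the nuclear RNA polymerases, was not called, with 13936, 16877 and 12515 in the GSI-labelled libraries, against 15327, 17069 and 17817 in the DMSO-labelled libraries. The count of general factors lower was 2 without GSI-labelled library 1, 3 without DMSO-labelled library 2, 5 without GSI-labelled library 3, 7 without DMSO-labelled library 3, 8 without DMSO-labelled library 1 and 21 without GSI-labelled library 2. The 2 of 46 without GSI-labelled library 1 were near the share of all genes lower in that fit, 4.38%. That of elongation factors was 2 without DMSO-labelled library 2, 3 without GSI-labelled library 1, 4 with upper-quartile scaling, without GSI-labelled library 3 and without DMSO-labelled library 3 and 5 without DMSO-labelled library 1. Of all genes, 4.25% were lower without DMSO-labelled library 2 and 8.22% with upper-quartile scaling.

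Of 48 subunits of chromatin remodellers 14 fell (29.2%, beside 18.4% of abundant protein-coding genes) and 3 rose (median -0.20). SRCAP, the ATPase that deposits the variant H2A.Z, had 32497, 33319 and 34326 in libraries labelled GSI, against 47539, 43391 and 44198 in libraries labelled DMSO, and fell by 0.43 ± 0.08 (log2, SE; adjusted p = 0.0053), and INO80, the ATPase of the complex named after it, fell by 0.51 ± 0.11. Histone acetyltransferases and their partners gave 6 falls (23.1%, near the 18.4% of abundant protein-coding genes) and 2 rises among 26 (median -0.16). A related pair of plant homeodomain proteins in these complexes went opposite ways: ING5 had 5469, 6295 and 5261 in the GSI-labelled libraries, against 9609, 10428 and 8740 in the DMSO-labelled libraries, a fall of 0.76 ± 0.10 (adjusted p = 0.0017), and ING4 had 4747, 4434 and 5597 in libraries labelled GSI, against 2858, 3092 and 3424 in libraries labelled DMSO, a rise of 0.65 ± 0.12 (adjusted p = 0.0048). Of 41 histone lysine methyltransferases 10 fell (24.4%, beside 18.4% of abundant protein-coding genes) and 2 rose. Their median of -0.16 was -0.10 without GSI-labelled library 3. SETD1B, which methylates lysine 4 of histone H3, had 10709, 13737 and 9878 in the GSI-labelled libraries, against 21650, 18192 and 17668 in the DMSO-labelled libraries, and fell by 0.75 ± 0.14, and SMYD5 fell by 0.74 ± 0.13, while NSD2 and KMT2A had log2 fold changes of 0.02 ± 0.08 and -0.07 ± 0.10 and overlapping groups. The count of remodellers lower was 3 without GSI-labelled library 1 and without DMSO-labelled library 2 and 6 with upper-quartile scaling, without GSI-labelled library 3 and without DMSO-labelled library 3, that of acetyltransferases 3 without GSI-labelled library 1 and without DMSO-labelled library 2, and that of lysine methyltransferases 6 without GSI-labelled library 1, without GSI-labelled library 3 and without DMSO-labelled library 2.

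Histone deacetylases and sirtuins were the chromatin list in which rises predominated. Among 18 there were 5 rises (27.8%, beside 10.1% of all genes) and 2 falls (median 0.20). HDAC11 (ENSG00000163517), the class IV deacetylase, had 363, 373 and 247 in libraries labelled GSI, against 113, 158 and 123 in libraries labelled DMSO, and rose by 1.30 ± 0.19 on the log2 scale (SE, adjusted p = 0.0025). HDAC6 rose by 0.36 ± 0.09. The more abundant HDAC4 fell, with 33636, 31186 and 30417 in the GSI-labelled libraries, against 38444, 39792 and 38897 in the DMSO-labelled libraries. Its log2 fold change was -0.30 ± 0.07 (adjusted p = 0.012), with no overlap. The class I enzymes HDAC1 and HDAC2 had log2 fold changes of -0.24 ± 0.10 and -0.18 ± 0.11 and were not called. Without GSI-labelled library 2 HDAC1 was called lower, at -0.35 (adjusted p = 0.021), and HDAC2 was not. The 48 h comparison gave -0.41 for HDAC1 (adjusted p = 0.031) and -0.02 for HDAC2 (adjusted p = 0.93). The count of members higher was 1 without GSI-labelled library 1 and 3 without GSI-labelled library 3 and without DMSO-labelled library 2.

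The sequence before the start of the genes was read for CACGTG, the canonical E-box bound by MYC with MAX and by related factors, in windows of 250 bases before to 50 after the RefSeq start (GRCh38.p14). This motif is its own reverse complement. Of 13381 kept protein-coding genes with a symbol 10840 had such a window. CACGTG was in 238 of the 1567 windows of genes that were lower (15.2%), against 101 of the 1097 of genes that were higher (9.21%), 1068 of all 10840 (9.85%) and 7.43% of all 27305 windows of the table. ACGTG on either strand, a shorter word that lies within CACGTG and is also the core of the hypoxia response element, was in 32.5% of windows of lower genes, 25.4% of those of higher genes and 25.9% of all kept. TGGGAA on either strand, the core of the site of the Notch partner RBPJ, was in 22.6%, 19.9% and 21.8% in the same order. These shares are descriptions of letters, not of binding, and their differences were not tested. By list, CACGTG was in 4 of 26 windows of tRNA modification enzymes that fell, 5 of 24 of helicases, 4 of 13 of karyopherins and Ran factors and 0 of 13 of genes for mitochondrial DNA.

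To show such windows, the member of smallest p that had one was taken from each of the 4 lists with the largest share lower. All are written 5′ to 3′ on the strand of the gene, from RefSeq GRCh38.p14, with CACGTG in capitals. The window of DDX51 lies at chr12:132144270-132144569 (minus strand) and that of TRMT61A at chr14:103528946-103529245 (plus strand). FASTKD2 has its window at chr2:206765356-206765655 (plus strand) and TNPO2 at chr19:12723883-12724182 (minus strand).
DDX51: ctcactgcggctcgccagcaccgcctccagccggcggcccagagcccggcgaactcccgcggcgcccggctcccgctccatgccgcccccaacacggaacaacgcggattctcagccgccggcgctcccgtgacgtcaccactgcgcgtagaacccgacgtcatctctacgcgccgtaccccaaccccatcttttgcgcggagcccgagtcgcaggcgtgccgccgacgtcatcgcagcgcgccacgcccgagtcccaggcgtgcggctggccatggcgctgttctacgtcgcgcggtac
TRMT61A: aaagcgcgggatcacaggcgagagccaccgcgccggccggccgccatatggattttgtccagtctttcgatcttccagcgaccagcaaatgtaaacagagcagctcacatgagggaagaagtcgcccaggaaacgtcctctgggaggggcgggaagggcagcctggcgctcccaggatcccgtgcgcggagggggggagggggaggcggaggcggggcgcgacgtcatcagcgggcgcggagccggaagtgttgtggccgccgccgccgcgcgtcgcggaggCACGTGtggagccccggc
FASTKD2: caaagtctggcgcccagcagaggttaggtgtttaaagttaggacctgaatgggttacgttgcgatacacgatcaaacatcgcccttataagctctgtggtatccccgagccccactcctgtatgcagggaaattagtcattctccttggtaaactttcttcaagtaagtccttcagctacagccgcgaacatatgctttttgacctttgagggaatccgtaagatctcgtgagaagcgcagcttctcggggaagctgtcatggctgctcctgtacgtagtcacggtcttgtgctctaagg
TNPO2: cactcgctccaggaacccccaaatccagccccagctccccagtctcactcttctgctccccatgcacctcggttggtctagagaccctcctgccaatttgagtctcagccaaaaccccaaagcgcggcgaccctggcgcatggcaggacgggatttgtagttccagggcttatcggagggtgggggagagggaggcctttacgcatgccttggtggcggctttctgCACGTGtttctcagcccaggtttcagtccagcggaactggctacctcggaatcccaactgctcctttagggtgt
The windows of TRMT61A and TNPO2 hold CACGTG once each, and those of DDX51 and FASTKD2 do not hold it, though all 4 genes fell, by 1.33 ± 0.19, 0.63 ± 0.10, 0.77 ± 0.10 and 0.57 ± 0.10 on the log2 scale (SE).

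Tetraspanins and integrins, surface proteins of adhesion, were among the lists in which rises predominated. Not every adhesion list stood out. Of 55 cadherins and protocadherins 3 rose (5.5%, under the 10.1% of all genes) and 0 fell. Of 30 laminins, thrombospondins and matricellular proteins 3 rose (10%) and 2 fell. Tetraspanins, membrane proteins that cluster integrins and other receptors, gave 8 rises and 1 fall among 26 (median 0.36), against 10.1% of all genes higher. Integrins with their talin and kindlin adaptors gave 9 rises and 1 fall among 35, with a median of 0.11 that was 0.17 without GSI-labelled library 1 and 0.23 without DMSO-labelled library 2. TSPAN2 (ENSG00000134198) had 1329, 1134 and 1449 in the GSI-labelled libraries, against 497, 415 and 610 in the DMSO-labelled libraries, and rose by 1.37 ± 0.21 on the log2 scale (SE, adjusted p = 0.0026), with no overlap. TSPAN9 had 222, 41.8 and 150 in libraries labelled GSI, against 5.31, 7.99 and 7.07 in libraries labelled DMSO, a rise of 3.87 ± 0.68 (adjusted p = 0.0037), and its GSI-labelled libraries were spread widely, library 2 lying lowest. CD37, a leukocyte tetraspanin, rose by 0.76 ± 0.15. CD82, another leukocyte tetraspanin, fell, with 16016, 19814 and 15304 in the GSI-labelled libraries, against 25461, 29373 and 25316 in the DMSO-labelled libraries, with a log2 fold change of -0.65 ± 0.11 (adjusted p = 0.0037), and CD81 was not called at -0.28 ± 0.10. The count of tetraspanins higher was 3 without GSI-labelled library 1 and 4 without DMSO-labelled library 1.

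Among the integrin chains, ITGA6 (ENSG00000091409), a laminin receptor subunit, had 658, 485 and 692 in libraries labelled GSI, against 255, 332 and 245 in libraries labelled DMSO, and rose by 1.14 ± 0.19 (log2, SE; adjusted p = 0.0035). ITGA5, of the fibronectin receptor, had 5624, 4708 and 5049 in the GSI-labelled libraries, against 3143, 2783 and 3340 in the DMSO-labelled libraries, and rose by 0.73 ± 0.13. For neither chain did the groups overlap. ITGA4, the chain of the receptor for VCAM1, was not called, with 39542, 40361 and 51595 in libraries labelled GSI, against 45058, 49404 and 49285 in libraries labelled DMSO. Of the adaptors inside the cell, FERMT2, a kindlin that activates integrins, had 1723, 1701 and 2547 in the GSI-labelled libraries, against 945, 556 and 924 in the DMSO-labelled libraries, and rose by 1.31 ± 0.21 (adjusted p = 0.0029). PXN, the focal adhesion scaffold paxillin, rose by 0.61 ± 0.10, and talin, TLN1, had a log2 fold change of 0.05 ± 0.09 with overlapping groups. At 48 h 1 member of the 35 was higher, where 4.33% of all genes were. FERMT2 had a log2 fold change of 0.40 at 48 h and PXN of 0.13, and the test of the difference between the times gave adjusted p = 0.83 and 0.71.

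**Figure D4:**
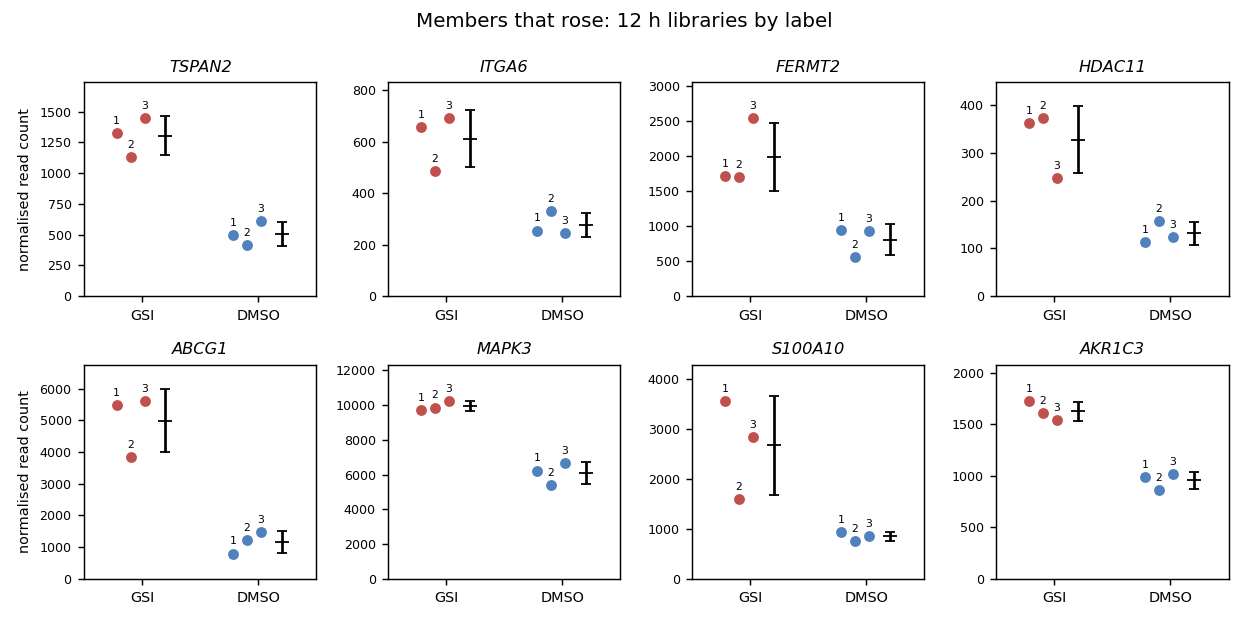
Normalised read counts of 8 members that rose, in each GSI-labelled library (red, left) and each DMSO-labelled library (blue, right) at 12 h; small digits are replicate numbers, and black marks give mean ± SD (n = 3). In every panel the 3 GSI-labelled libraries lie above the 3 DMSO-labelled libraries, for TSPAN2 at 1134 to 1449 against 415 to 610.

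Among signalling genes, several kinases of the MAP kinase cascade rose. Of 32 MAP kinases, MAP kinase kinases and ribosomal S6 kinases 7 rose (21.9%, beside 10.1% of all genes) and 1 fell. Their median of 0.03 was -0.01 without DMSO-labelled library 1. MAPK3 (ENSG00000102882), which encodes ERK1, had 9701, 9852 and 10243 in libraries labelled GSI, against 6230, 5398 and 6660 in libraries labelled DMSO, and rose by 0.71 ± 0.10 on the log2 scale (SE, adjusted p = 0.0021). The kinases upstream of it rose too, MAP2K2 by 0.54 ± 0.12 and MAP2K1 by 0.39 ± 0.09. The count of kinases higher was 3 without GSI-labelled library 1, where 3.92% of all genes were higher, and 4 without GSI-labelled library 3 and without DMSO-labelled library 2. At 48 h 0 of the 32 were called in either direction in the limma fit, against 9.68% of all genes.

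Metabolic families held rises and falls side by side. Of 51 aldehyde and alcohol dehydrogenases and aldo-keto reductases 11 rose (21.6%, beside 10.1% of all genes) and 3 fell, with a median of 0.00. AKR1C3, which reduces steroids and prostaglandins, had 1729, 1606 and 1541 in the GSI-labelled libraries, against 989, 860 and 1020 in the DMSO-labelled libraries, and rose by 0.77 ± 0.11 on the log2 scale (SE, adjusted p = 0.0022). It shares long stretches of sequence with other AKR1C genes, so its reads may be split between them. DHRS1, a short-chain dehydrogenase, rose by 0.74 ± 0.13 and HSD17B7, an enzyme of cholesterol and steroid synthesis, by 0.57 ± 0.12. ADH5, the formaldehyde-oxidising class III enzyme, had 16713, 20032 and 18774 in libraries labelled GSI, against 19103, 23564 and 21651 in libraries labelled DMSO, with overlapping groups. The count of these enzymes higher was 5 without DMSO-labelled library 2, 6 without DMSO-labelled library 1 and 7 without GSI-labelled library 1 and without GSI-labelled library 3. Of 36 ABC transporters 8 rose (22.2%, beside 10.1% of all genes) and 5 fell. Their median of -0.06 became positive, 0.03, with upper-quartile scaling and without both libraries numbered 2, and 0.00 without DMSO-labelled library 1. ABCG1, which exports cholesterol, had 5492, 3847 and 5619 in the GSI-labelled libraries, against 800, 1211 and 1490 in the DMSO-labelled libraries, and rose by 2.12 ± 0.24 (adjusted p = 0.0011). ABCE1 and ABCF2, which carry the ATP-binding domains but work in ribosome recycling and translation rather than transport, fell by 0.75 ± 0.13 and 0.85 ± 0.16. The count of ABC transporters higher was 3 without GSI-labelled library 1, 4 without GSI-labelled library 3 and without DMSO-labelled library 2 and 5 without DMSO-labelled library 1.

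Among 33 genes of haem synthesis and iron handling 5 rose and 8 fell (24.2%, beside 18.4% of abundant protein-coding genes). Their median of -0.04 was 0.04 with upper-quartile scaling. The transferrin receptor TFRC had 50312, 60664 and 38999 in libraries labelled GSI, against 77159, 91881 and 68685 in libraries labelled DMSO, and fell by 0.68 ± 0.16 (log2, SE; adjusted p = 0.013), which became adjusted p = 0.061 without DMSO-labelled library 2. BLVRB, a biliverdin and flavin reductase, had 238, 154 and 163 in the GSI-labelled libraries, against 64.6, 60.9 and 93.7 in the DMSO-labelled libraries, and rose by 1.33 ± 0.25 (adjusted p = 0.0053). FTL, the ferritin light chain, had 75138, 94672 and 73636 in libraries labelled GSI, against 119599, 139297 and 89413 in libraries labelled DMSO, with groups that overlapped (adjusted p = 0.072). The count of members lower was 0 without DMSO-labelled library 2, 1 without GSI-labelled library 1, 2 without GSI-labelled library 3 and 3 with upper-quartile scaling and without DMSO-labelled library 3. Of 30 dioxygenases that use 2-oxoglutarate and act outside histones 7 fell (23.3%, beside 18.4% of abundant protein-coding genes) and 5 rose (median -0.12). ALKBH2, which repairs alkylated DNA, had 1482, 1860 and 1422 in the GSI-labelled libraries, against 2521, 3160 and 2765 in the DMSO-labelled libraries, and fell by 0.83 ± 0.15 (adjusted p = 0.0041). ALKBH8, which also belongs to the tRNA list, fell by 0.56 ± 0.11. The count of dioxygenases lower was 4 without GSI-labelled library 1 and without DMSO-labelled library 2.

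Of 34 metallothioneins, S100 proteins, galectins and annexins 7 rose (20.6%, beside 10.1% of all genes) and 3 fell. Their median of 0.18 was 0.08 without GSI-labelled library 2. At 48 h 0 were higher and 5 lower, with a median of -0.13. S100A10, the partner of annexin A2 at the membrane, had 3565, 1594 and 2848 in libraries labelled GSI, against 937, 749 and 864 in libraries labelled DMSO, and rose by 1.58 ± 0.29 on the log2 scale (SE, adjusted p = 0.0045). The metallothioneins MT1G and MT1E, which bind zinc and copper, were low and fell: MT1G had 1.94, 3.8 and 16.1 in the GSI-labelled libraries, against 61.9, 37 and 57.5 in the DMSO-labelled libraries, and MT1E had 3.89, 11.4 and 13.4 in libraries labelled GSI, against 103, 38 and 61 in libraries labelled DMSO. Their log2 fold changes were -3.06 ± 0.59 and -2.72 ± 0.56 (adjusted p = 0.0054 and 0.0068), but metallothionein genes are near-identical copies and these values are uncertain. ANXA1, annexin A1, had 32988, 26371 and 40804 in the GSI-labelled libraries, against 18997, 15798 and 38222 in the DMSO-labelled libraries, with overlapping groups and DMSO-labelled library 3 the highest of its group. Without that library it was called, with a log2 fold change of 0.92 (adjusted p = 0.031). The count of members higher was 2 without GSI-labelled library 1 and 3 without DMSO-labelled library 2.

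The single genes below were ranked by fold change among called protein-coding genes whose groups did not overlap and whose higher group averaged 100 or more, outside genes already known from these data for hypoxia or Notch. TSPAN9, given above, was among the 8 largest rises so ranked. WNT10B, a secreted Wnt ligand, had 163, 62 and 86 in libraries labelled GSI, against 8.85, 14 and 9.72 in libraries labelled DMSO, and rose by 3.05 ± 0.50 on the log2 scale (SE, adjusted p = 0.0032). CERCAM, an endothelial adhesion protein, rose by 2.89 ± 0.48, and SYTL3, which links Rab27 to membranes, by 2.82 ± 0.49. CYP11A1, the mitochondrial enzyme that cleaves the cholesterol side chain, had 115, 54.4 and 150 in the GSI-labelled libraries, against 18.6, 7.99 and 14.1 in the DMSO-labelled libraries, and rose by 2.84 ± 0.55. RELN, the extracellular matrix protein reelin, had 183, 11.4 and 126 in libraries labelled GSI, against 2.65, 2 and 3.54 in libraries labelled DMSO, a log2 fold change of 4.17 ± 1.13 (adjusted p = 0.021). It was not called without GSI-labelled library 1, GSI-labelled library 3 or DMSO-labelled library 2 (adjusted p = 0.098, 0.076 and 0.070). In WNT10B, CERCAM, SYTL3, CYP11A1 and RELN alike, GSI-labelled library 2 was the lowest of its group. That it lay above all DMSO-labelled libraries was a condition of the ranking.

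Among the 8 largest falls by the same ranking, which again took only genes whose groups did not overlap, was ADCY1, a calcium-stimulated adenylyl cyclase. ADCY1 had 116, 262 and 94 in the GSI-labelled libraries, against 404, 764 and 380 in the DMSO-labelled libraries. It fell by 1.78 ± 0.40 on the log2 scale (SE, adjusted p = 0.0099). SGPP2, a phosphatase of sphingosine 1-phosphate, fell by 1.73 ± 0.32, and ATP9A, a P-type ATPase of endosomes, fell by 1.72 ± 0.32. For ADCY1 and ATP9A the 48 h comparison gave -1.75 and -2.37 (adjusted p = 0.023 and 0.0031).

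In T lymphoblast markers 1 gene stood in opposite directions at the 2 times. RAG1 (ENSG00000166349), the recombinase of antigen receptor genes, had 2943, 2699 and 3142 in libraries labelled GSI, against 4221, 3640 and 4804 in libraries labelled DMSO at 12 h, and fell by 0.52 ± 0.14 on the log2 scale (SE, adjusted p = 0.022). At 48 h it had 7527, 7141 and 9128 in libraries labelled GSI, against 3466, 4077 and 4971 in those labelled DMSO, a log2 fold change of 0.93 (adjusted p = 0.0052). The test of the difference between the treatment effects, 48 h minus 12 h, gave adjusted p = 0.075, so it did not pass, and no gene had a lower one. Over all 19281 genes that difference passed in 0 (0.0%) by limma, though 875 had p under 0.05 before adjustment, in 0 by edgeR and in 62 by DESeq2. The 12 h call of RAG1 was lost with upper-quartile scaling and without GSI-labelled library 1, DMSO-labelled library 1 or DMSO-labelled library 3 (adjusted p = 0.056, 0.068, 0.052 and 0.075). RAG1 is named after its values were seen.

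In the 5 lists that follow the shares called were near or under those of all genes, 10.1% higher and 11.4% lower, so their counts are no result about their members. Homologous recombination and Fanconi genes gave 0 rises and 3 falls among 34 (median 0.00). Cohesin and condensin gave 1 rise and 2 falls among 26, and ESCRT and retromer 5 and 4 among 79. Nuclear receptors gave 4 rises and 4 falls among 40, and the AMPK, TOR and TSC components 2 rises and 1 fall among 36.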

How the data were processed

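The deposited table holds a signal, read counts per gene that the authors divided by a size factor of each library, for 62069 Ensembl gene identifiers in 12 libraries. Per the submitters' processing notes the build was hg19 and the tools were TopHat2 2.0.10, FastQC 0.10.1, DESeq2 and HTSeq 0.6.1. How they were set, the annotation and the use of strand: not given in the sources used here. In each library 100% of the values were whole multiples of 1 step within 0.01, so whole reads were recovered, 73939612 to 160702764 per library. Without strand, reads of overlapping and antisense genes cannot be told apart.

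A gene was kept where 3 or more libraries reached a value of 10. Log2(value + 1) of the 12 libraries was fitted with limma 3.58.1 (R 4.3.3), using a mean per group and a trended prior, and p-values were adjusted over all 19281 genes by Benjamini-Hochberg. Fold changes are on this scale, which understates those of low genes, and every adjusted p comes from this fit unless another tool is named. On the recovered reads, edgeR 4.0.16 called 4201 genes and DESeq2 1.42.0 called 5001. The code of the fit was also run on simulated counts with the same spread setting for every gene. That run does not show how the fit performs on these libraries. Symbols were found for 16495 of the genes kept, and GENCODE 29 gave biotypes. Upper-quartile scaling, other pseudocounts and filters, a fit to 6 libraries and leaving out each library were tried as alternatives.

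The members and lists were chosen with earlier results of these data known. From lists described in detail the rule took the 4 called members of smallest p and the 2 most abundant members not called, from other lists 2 called members, and 8 rises and 8 falls without overlap whose higher group averaged 100 or more. Not every gene taken is reported, and 1 of the 26 lists and some single genes are not reported here. NRARP and the mitochondrially encoded mRNAs were taken as checks.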

Additional observations from a re-analysis of the deposited data

How the results depend on the processing

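The number of genes called, 4144, stayed within 1.5 times under both pseudocounts, with no filter and a stricter one, with upper-quartile scaling, with edgeR and with DESeq2. It was 2607 (1271 higher, 1336 lower) when only the 6 libraries were fitted. In that fit 6.93% of all genes were lower. Members lower there were 4 of 48 remodellers, 3 of 32 elongation factors, 5 of 35 factors of 3′ end formation and 1 of 33 haem and iron genes. Leaving out 1 library in turn gave 1599 to 5662 genes called, 755 to 2626 higher and 820 to 3036 lower, with the fewest calls without GSI-labelled library 1 and the most without GSI-labelled library 2; the cause was not tested. For the difference between the treatment effects at 48 h and 12 h, limma and edgeR called 0 genes and DESeq2 62. List counts moved by over 1.5 times for 23 of the 26 lists without GSI-labelled library 1, for 22 without DMSO-labelled library 2, for 17 without GSI-labelled library 3, for 10 without DMSO-labelled library 3, for 6 without DMSO-labelled library 1 and for 2 without GSI-labelled library 2. They moved so for 13 with only the 6 libraries fitted, for 10 with the replicate block, for 7 with no filter and for 6 with upper-quartile scaling. List medians depended most on scaling. With upper-quartile scaling the medians of 19 of the 26 lists moved by at least their spread among libraries of the same label. Without DMSO-labelled library 2 the medians of 4 lists moved so.

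The replicate numbers were not shown to pair the libraries. Deviations from the group means correlated at 0.10 for the libraries numbered 1, 0.27 for those numbered 2 and 0.07 for those numbered 3, and GSI-labelled library 3 correlated best with DMSO-labelled library 1, at 0.14. With the replicate block the fit called 6951 genes, 3178 higher and 3773 lower, and 40 for the difference between the treatment effects. The groups of 3 limit the precision, and genes near the filter value rest on few reads.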

Other observations

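Several lists held named changes although their shares stayed under 2 times those of all genes, 10.1% higher and 11.4% lower. Of 55 myosins, tropomyosins and actin crosslinkers 11 (20%) were higher and 1 lower in GSI-labelled libraries. MYO1G, a haematopoietic class I myosin, had 29467, 27670 and 30010 in the GSI-labelled libraries, against 19473, 14890 and 21117 in the DMSO-labelled libraries, and rose by 0.67 ± 0.12 on the log2 scale (SE, limma adjusted p = 0.0041). Of 83 Rab GTPases and TBC proteins 15 (18.1%) were higher and 5 lower. RAB37, a Rab of secretory vesicles, had 10618, 9018 and 9499 in libraries labelled GSI, against 3587, 4617 and 4707 in libraries labelled DMSO, and rose by 1.18 ± 0.17 (adjusted p = 0.0022). For both genes the groups did not overlap. PIK3C2B, a class II phosphoinositide 3-kinase, had 3515, 2993 and 3778 in the GSI-labelled libraries, against 1730, 1683 and 1666 in the DMSO-labelled libraries, and rose by 1.01 ± 0.12 (adjusted p = 0.0012), with all GSI-labelled libraries above all DMSO-labelled libraries. EFNA3, an ephrin ligand, rose by 2.35 ± 0.39, and another ephrin, EFNB2, fell by 0.93 ± 0.19.

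The endoplasmic reticulum translocon, signal peptidase and oligosaccharyltransferase list had 0 members higher and 10 lower of 49. This share lower, 20.4%, was near the 18.4% of abundant protein-coding genes. SRPRB, a subunit of the receptor for the signal recognition particle, had 3037, 4382 and 3644 in libraries labelled GSI, against 5846, 7606 and 6332 in libraries labelled DMSO, and fell by 0.85 ± 0.15 (log2, SE; limma adjusted p = 0.0038). CPT1A, which brings fatty acids into mitochondria, had 6524, 8747 and 5769 in the GSI-labelled libraries, against 13342, 12182 and 11750 in the DMSO-labelled libraries, and fell by 0.85 ± 0.13 (adjusted p = 0.0025). Of the 26 genes of fatty acid oxidation 5 (19.2%) were higher, beside 10.1% of all genes, and 1 was lower. DDB2, a sensor of ultraviolet damage, had 5745, 4620 and 6724 in libraries labelled GSI, against 3214, 2198 and 2826 in libraries labelled DMSO, and rose by 1.05 ± 0.18 (adjusted p = 0.0033). In SRPRB, CPT1A and DDB2 the groups did not overlap.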
